A study of Sus scrofa with 16 samples.

Results

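The endoplasmic reticulum chaperones HSPA5, HSP90B1, DNAJC3 and PDIA4 were followed in the liver and the subcutaneous backfat of pigs of the Iberian breed, aged 211 days. They were chosen by gene symbol, as every probe set that the platform annotation gives to 1 of these 4 genes, which made 8 of the 23999 probe sets left without the array's controls and 4 of 6765 genes. The choice was made with their feeding differences in liver known, so those differences are described below with no test. The study compared males and females on a high feeding level with males and females restricted by 20% (the low level), all first fed the same pelleted diet. There were 16 samples on 16 Affymetrix arrays of the pig, 2 for each of 8 combinations of tissue, sex and feeding level. The design text speaks of 8 animals, whereas the labels carry 10 animal numbers. Males 14 and 17 (high) and 15 and 16 (low) gave both tissues. The numbers 20 and 21 appear on female arrays of both tissues with opposite feeding levels. Castration of the males is not mentioned in the labels.

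Proteins bound for secretion fold in the lumen of the endoplasmic reticulum, and hepatocytes, which make most plasma proteins, carry a heavy folding load. HSPA5, also called BiP, is the heat shock protein of the lumen that binds unfolded chains, and it holds the sensors of the unfolded protein response inactive until unfolded chains compete for it. DNAJC3 is a co-chaperone with a J domain that works with HSPA5, HSP90B1 is the lumenal member of the heat shock protein family of HSP90AA1, and PDIA4 is a protein disulfide isomerase that forms and rearranges disulfide bonds. The genes of all 4 are textbook targets of the unfolded protein response.

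Values are log2 GCRMA levels, in which a difference of 1 is a doubling and unexpressed probe sets lie near a low floor, so a level of 4 was taken as the lower limit of a measured signal. HSPA5 had 1 probe set, HSP90B1 and DNAJC3 had 2 each and PDIA4 had 3. Of these 8, the 6 called the bright probe sets here stood above 4 on all 16 arrays. The second DNAJC3 probe set was above 4 only in the liver of high-fed female 20, at 4.62, and was not tested. The third PDIA4 probe set was above 4 only in the livers of high-fed male 17, at 4.12, and high-fed female 20, at 4.61, and passed the filter of 2 arrays above 4 through the high-fed group alone. All 12 hepatocyte markers were above 4 in liver, with a summed level (log2) of 18.03 to 18.14 at the low feeding level and 17.99 to 18.11 at the high level. Of 7 adipocyte markers, 6 were below 4 on all liver arrays, and their summed level in backfat was 15.4 to 16.0. EIF1AY, a gene of the Y chromosome, was above 4 on 8 of 8 arrays labelled male and on 0 of 8 labelled female.

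In liver, all 4 chaperones stood lower in the restricted pigs than in the high-fed pigs, in both sexes. HSPA5, with its 1 probe set, read 12.34, 12.42, 12.26 and 12.51 in high-fed animals 14, 17, 19 and 20. It read 11.31, 11.77, 11.68 and 12.00 in restricted animals 15, 16, 18 and 21. Every restricted liver lay below every high-fed liver, with 0.26 between the nearest values. The mean was 12.38 ± 0.11 (SD, n = 4) in the high-fed and 11.69 ± 0.28 (SD, n = 4) in the restricted livers, so HSPA5 was 1.62-fold higher in the high-fed livers.

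HSP90B1, measured by its S2 probe set, read 12.27, 12.99, 12.23 and 12.83 in the same order of high-fed animals and 11.61, 11.92, 11.56 and 11.83 in the restricted ones. The groups were separate again, and the high-fed males 14 and 17 alone differed by 0.73. Its means were 12.58 ± 0.39 (SD, n = 4) and 11.73 ± 0.17 (SD, n = 4), a 1.81-fold difference, and its S1 probe set gave 1.97-fold.

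DNAJC3, measured by its first probe set, read 7.44, 8.52, 8.02 and 9.08 in the high-fed livers and 6.73, 6.97, 7.09 and 7.27 in the restricted livers. The nearest values, those of high-fed male 14 and restricted female 21, lay 0.17 apart, the narrowest gap among the bright probe sets. Its means were 8.26 ± 0.70 (SD, n = 4) and 7.02 ± 0.22 (SD, n = 4), a 2.38-fold difference.

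PDIA4 read 10.89, 11.84, 11.05 and 11.97 in the high-fed livers by its S2 probe set and 10.26, 10.31, 10.23 and 10.57 in the restricted livers. The restricted livers were close together, whereas high-fed animals 17 and 20 stood well above 14 and 19. Its means were 11.44 ± 0.55 (SD, n = 4) and 10.34 ± 0.15 (SD, n = 4), a 2.14-fold difference, and its S1 probe set gave 3.20-fold, from 9.49 ± 0.67 (SD, n = 4) and 7.81 ± 0.23 (SD, n = 4). The probe sets of 1 gene thus shared a direction and differed in size.

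**Figure D1:**
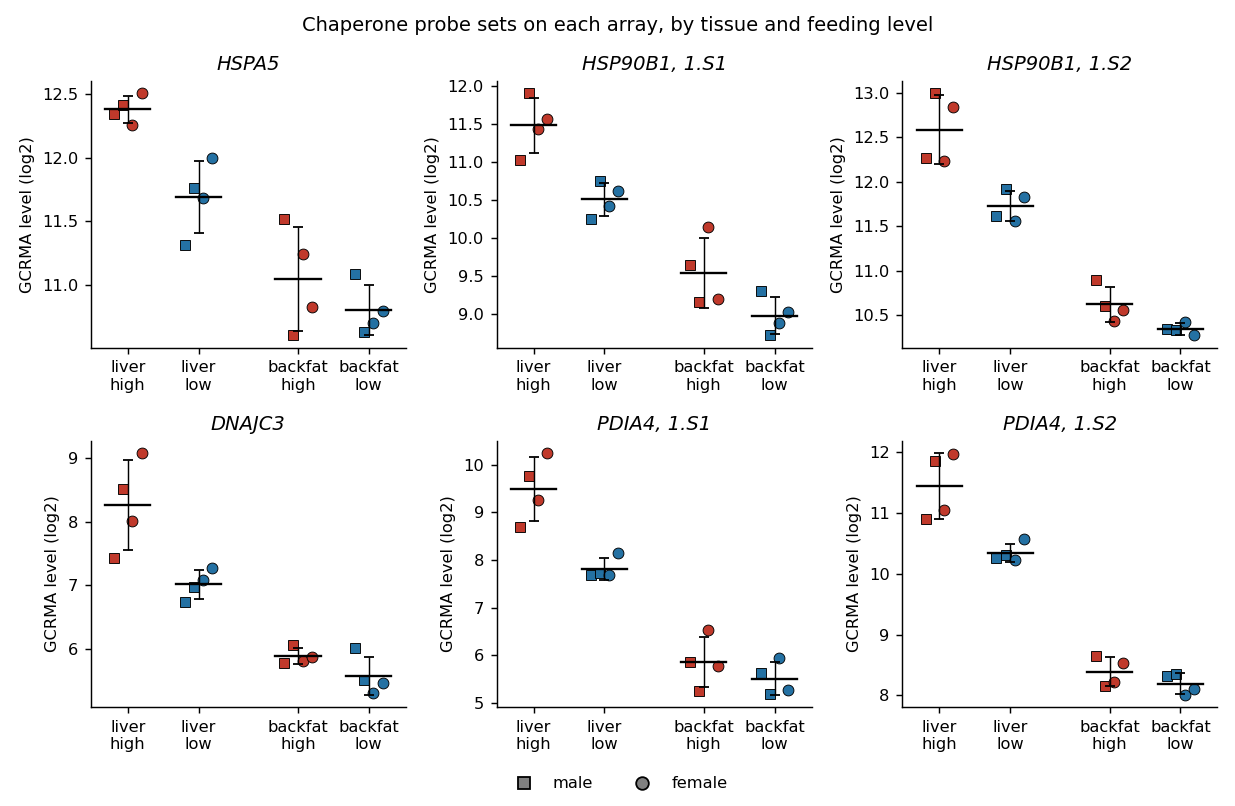
Log2 GCRMA level of the 6 bright chaperone probe sets on each array, by tissue and feeding level, with squares for males and circles for females; lines are means of 4 arrays, bars are 1 SD, and 1.S1 and 1.S2 name the 2 probe sets of a gene. In liver no low array reaches the high arrays in any panel, whereas in backfat the levels overlap in 5 of 6 panels.

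Of the 6 bright probe sets, 6 had all restricted livers below all high-fed livers, whereas 3.11% of the 12617 probe sets tested in liver did. That contrast chose the genes, and nothing is read from the count. No probe set of the array passed the adjusted threshold for feeding in liver (0% at a limma Benjamini-Hochberg adjusted p below 0.05), and 11.5% had an unadjusted p below 0.05. In tissue RNA, fewer cells of a type and less RNA per cell cannot be told apart. Macrophage markers summed to 11.62 to 12.17 in restricted livers and to 11.85 to 12.44 in high-fed livers, and fibroblast and stellate cell markers to 10.24 to 10.69 and to 9.98 to 11.48. Among B and plasma cell markers, the cells known for the heaviest secretory load, JCHAIN alone was above 4 in liver, with means of 9.16 at the low and 8.68 at the high level, while CD79B and TNFRSF17 were below 4 on every liver array. The difference between the 3' and 5' probe sets of GAPDH, a measure of RNA integrity, averaged 2.88 in restricted and 2.63 in high-fed livers. Restricted animals 15, 16 and 18 read 2.95, 3.0 and 2.96, above every high-fed liver (2.46 to 2.87), and restricted female 21 read 2.59. The part of these measures in the chaperone differences was not tested.

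Separation within each sex follows from the separation over both sexes in liver, so it adds nothing, and only the sizes are given by sex. The low minus high difference of HSPA5 was -0.54 in females and -0.84 in males. HSP90B1 (S2 probe set) had -0.84 and -0.87, DNAJC3 -1.37 and -1.13, and PDIA4 (S2 probe set) -1.11 and -1.08. With female numbers 20 and 21 left out, an alternative chosen after seeing the data, the median difference of the 4 genes was -0.86 against -0.98 over all livers. Leaving out 1 liver at a time gave medians from -1.19 without male 14 to -0.77 without male 17.

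The livers of 1 group also differed from each other in a shared order. Male 17 stood above male 14, male 16 above male 15, female 20 above female 19 and female 21 above female 18 on all 6 bright probe sets. In the high-fed pairs DNAJC3 differed by 1.08 between males 17 and 14 and by 1.07 between females 20 and 19, while in the restricted pairs it differed by 0.24 and 0.18. HSPA5 differed by 0.08 and 0.25 in the high-fed pairs and by 0.45 and 0.31 in the restricted ones. The order of HSPA5 in the 4 pairs was shared by 9.07% of the probe sets tested in liver. HSPA5 shares its own order by definition, and HSP90B1 and PDIA4 are each counted by more than 1 bright probe set. Female 20 gave the highest liver value of 4 bright probe sets and male 17 that of the remaining 2, those of HSP90B1. In backfat the order of HSPA5 was shared by 2 of the 6 bright probe sets, HSPA5 itself and the S1 probe set of HSP90B1, and by 4.89% of those tested there.

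**Figure D2:**
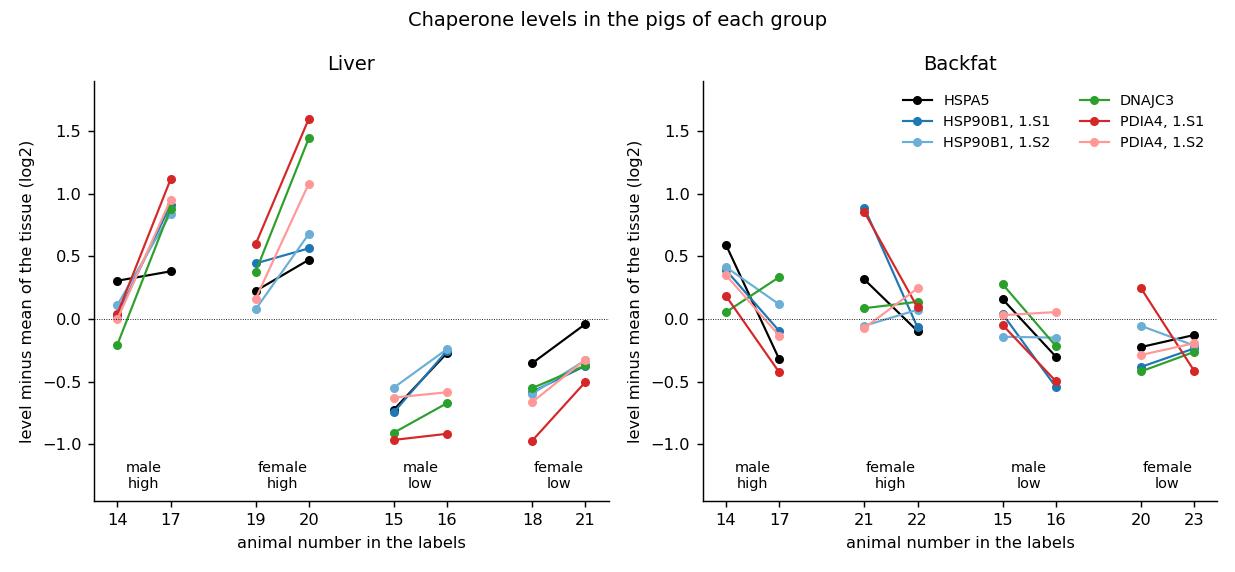
Level of each bright chaperone probe set minus its mean over the 8 arrays of the tissue (log2), for the 2 pigs of each sex and feeding group, joined by a line. In liver the lines of all 6 probe sets slope the same way within each pair, and in backfat they cross.

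Over the 8 livers, Pearson's r between the 4 genes ran from 0.861 for HSPA5 with DNAJC3 to 0.974 for DNAJC3 with PDIA4, and Spearman's rho from 0.833 to 0.952. These values include the feeding difference and arrays normalized by quantiles, and are a description. In backfat r ran from 0.284 to 0.639 over 8 arrays and none of the 6 relations passed (exact permutation tests, two-sided, p from 0.108 to 0.497, Benjamini-Hochberg adjusted 0.456 to 0.497). Spearman's rho there ran from 0.0476 to 0.5, with exact permutation p from 0.216 to 0.935 and adjusted values from 0.598 to 0.935. Without the 2 arrays farthest from the median, r in backfat ran from -0.334 to 0.484.

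In backfat, the 4 chaperones were measured in the same way and none passed the test for feeding. HSPA5 read 11.52, 10.60, 11.24 and 10.83 in high-fed animals 14, 17, 21 and 22, and 11.08, 10.63, 10.70 and 10.80 in restricted animals 15, 16, 20 and 23. The levels overlapped, since male 17 was the lowest of the 8 and male 14 the highest. The low minus high difference was -0.25 (95% interval -0.81 to 0.32, limma adjusted p = 0.717). It was -0.02 without male 14 and -0.47 without male 17.

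HSP90B1 by its S2 probe set read 10.90, 10.60, 10.43 and 10.56 in the high-fed backfats and 10.34, 10.33, 10.43 and 10.27 in the restricted ones. High-fed female 21 and restricted female 20 were equal at this rounding, and no restricted array exceeded a high-fed one. The difference was -0.28 (95% interval -0.58 to 0.03, limma adjusted p = 0.479). It was the only 1 of the 6 bright probe sets without overlap in backfat, where 3.36% of 12686 probe sets had every restricted array lower. The S1 probe set of the same gene gave -0.56 (95% interval -1.18 to 0.06, limma adjusted p = 0.481) and overlapped. With 1 array left out, this probe set ran from -0.80 without female 22 to -0.32 without female 21, and S2 from -0.35 to -0.20.

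DNAJC3 read 5.79, 6.07, 5.82 and 5.87 in the high-fed backfats and 6.01, 5.52, 5.31 and 5.47 in the restricted ones, with restricted male 15 inside the high-fed range. Its difference was -0.31 (95% interval -0.68 to 0.06, limma adjusted p = 0.508). PDIA4 by its S2 probe set read 8.64, 8.16, 8.22 and 8.54 against 8.32, 8.35, 8.01 and 8.10, overlapping as well. The difference of PDIA4 was -0.20 (95% interval -0.57 to 0.18, limma adjusted p = 0.661), and its S1 probe set gave -0.35 (95% interval -0.99 to 0.28, limma adjusted p = 0.642). With 1 array left out, DNAJC3 ran from -0.43 without male 15 to -0.19 without male 16. PDIA4 ran from -0.32 without male 17 to -0.08 without male 14 by S2, and from -0.54 without female 22 to -0.16 without female 21 by S1.

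All 6 bright probe sets had a mean difference below 0 in backfat, and 48.9% of the probe sets tested there did. No probe set of the array passed for feeding in backfat (0% at an adjusted p below 0.05, limma), while 11.1% had an unadjusted p below 0.05. The backfat intervals of HSPA5 and of HSP90B1 by S1 include the liver difference of the same probe set (-0.69 and -0.97). Those of the remaining bright probe sets do not, though they too include differences below 0. The backfat values therefore do not show that feeding left the chaperones alone there. Whether the feeding difference was larger in liver than in backfat was not tested, because liver values chose the genes. Hepatocyte markers, among them ALB and HP, gave signal in some backfat samples, with a summed level of 7.98 to 12.06 at the low and 6.50 to 10.29 at the high level. Macrophage markers summed to 7.56 to 8.50 at the low and 8.40 to 10.11 at the high level in backfat. Their part in the backfat values was not tested.

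Females and males were compared next, over both feeding levels. In liver 0 of the 6 bright probe sets passed, against 4.53% of all 12617 (limma, adjusted p below 0.05). None had an unadjusted p below 0.05, against 19.2%. HSPA5 averaged 12.11 in females and 11.96 in males, a difference of 0.15 (95% interval -0.22 to 0.53, limma adjusted p = 0.676). DNAJC3 had the largest difference, 0.45 (95% interval -0.30 to 1.2, limma adjusted p = 0.513). HSP90B1 (S2 probe set) differed by -0.08 (95% interval -0.61 to 0.45) and PDIA4 (S2 probe set) by 0.13 (95% interval -0.54 to 0.80), with limma adjusted p of 0.892 and 0.865.

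In backfat 0 of the 6 tested passed for sex, against 0.11% of 12686, and 0 had an unadjusted p below 0.05, against 6.04%. HSPA5 differed by -0.06 (95% interval -0.63 to 0.50, limma adjusted p = 0.974) and DNAJC3 by -0.23 (95% interval -0.60 to 0.15, limma adjusted p = 0.855). The probe sets of HSP90B1 and of PDIA4 disagreed in sign there. HSP90B1 had 0.10 by its S1 and -0.12 by its S2 probe set, and PDIA4 had 0.39 by S1 and -0.15 by S2.

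A difference between the sexes in the response to feeding was tested as an interaction. For the chaperones the limma adjusted p lay between 0.948 and 0.999 in liver and between 0.898 and 0.983 in backfat, and 0% of all probe sets passed in either tissue. At an unadjusted p below 0.05 the interaction was called for 0 chaperone probe sets, against 5.43% of all in liver and 5.27% in backfat. In liver the interaction was 0.30 for HSPA5 (95% interval -0.45 to 1.04) and -0.24 for DNAJC3 (95% interval -1.74 to 1.25). With 2 arrays per sex and feeding level, these intervals reach differences as large as the feeding differences themselves.

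All 4 chaperones were higher in liver than in backfat. HSPA5 averaged 12.04 in liver and 10.92 in backfat, which made it 2.16-fold higher in liver (log2 difference 1.11, 95% interval 0.78 to 1.44, limma adjusted p = 3.13e-05). Its tissues overlapped by 0.20, since restricted male 15 had 11.31 in liver and high-fed male 14 had 11.52 in backfat. HSP90B1 (S2 probe set) was 3.19-fold higher in liver (95% interval of the log2 difference 1.38 to 1.97, limma adjusted p = 3.21e-07), with 0.66 between the nearest arrays. DNAJC3 was 3.75-fold higher (95% interval of the log2 difference 1.5 to 2.32, limma adjusted p = 2.13e-06), with a gap of 0.67.

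PDIA4 had the largest tissue difference of the 4 genes, 6.05-fold by its S2 probe set (95% interval of the log2 difference 2.22 to 2.97, limma adjusted p = 5.83e-08) and 7.79-fold by its S1 probe set. Its lowest liver array stood 1.58 above its highest backfat array by the former. All 6 bright probe sets passed and were higher in liver, against 32.2% of 13962. The dim PDIA4 probe set entered the fit only through 2 livers above 4, so its call is not counted and no fold is given for it. No overlap between the tissues was seen for 5 of the 6 bright probe sets, against 18.3% of all tested. The median of all probe sets lay at -0.15, towards backfat.

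**Figure D3:**
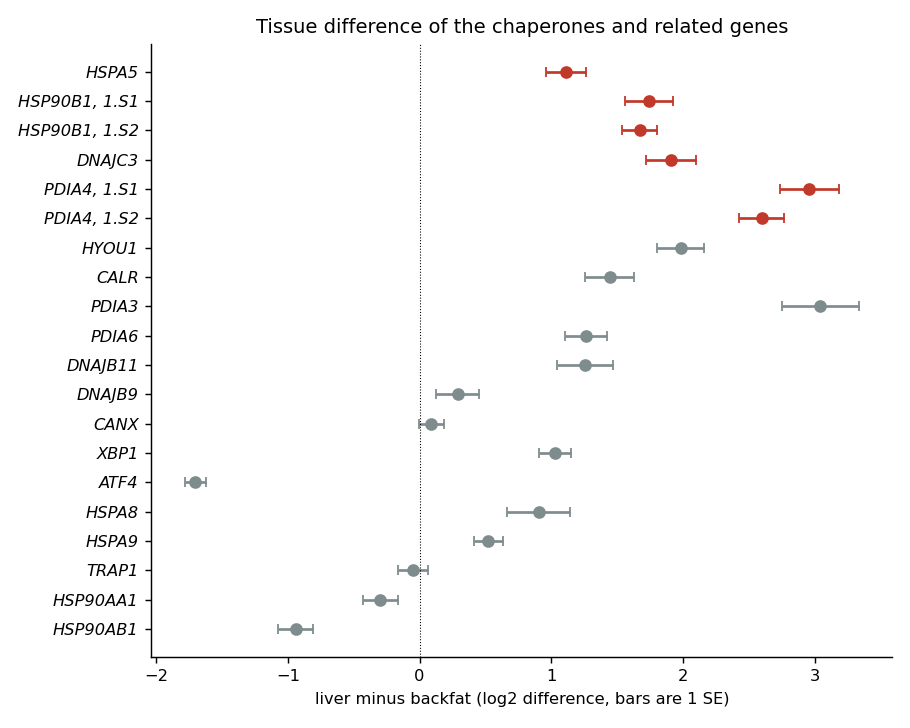
Liver minus backfat difference (log2, 8 arrays a tissue, bars are 1 SE) of the 6 bright chaperone probe sets, in red, and of related genes of the endoplasmic reticulum, cytosol and mitochondria, in grey. The red points lie between 1.11 and 2.96, and ATF4, HSP90AB1, HSP90AA1 and TRAP1 lie below 0.

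The other genes of the pathway were read from lists. For feeding in liver none of their genes passed the adjusted threshold, so counts are given at an unadjusted p below 0.05, which 6.67% of all probe sets reached with a lower level in restricted pigs. Among 18 measured chaperones and folding enzymes of the endoplasmic reticulum, 18 had a lower mean at the low level (51.8% of all probe sets did). No overlap was seen for 8, against 3.11% of all probe sets, and 11 reached that p. The median difference was -0.67, against -0.01 over all probe sets tested. With female numbers 20 and 21 left out, 6 of the 18 reached it. SDF2L1, a partner of the lumenal J-domain protein DNAJB11, had the largest difference, averaging 8.52 ± 1.35 (SD, n = 4) in high-fed and 5.89 ± 0.79 (SD, n = 4) in restricted livers. That is a difference of -2.63 ± 0.72 (SE, limma adjusted p = 0.326).

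DNAJB11 itself differed by -1.52 ± 0.35 (SE), MANF, a secreted factor held in the lumen, by -0.98 ± 0.22 (SE), and HYOU1, a nucleotide exchange factor of HSPA5, by -1.02 ± 0.28 (SE). Their limma adjusted p were 0.308, 0.308 and 0.325. CRELD2 differed by -1.69. The lectin chaperone CALR differed by -0.69 and CANX by -0.34. The disulfide isomerases PDIA3 and PDIA6 had -0.82 and -0.84. DNAJB9, another J-domain protein of the lumen, differed by -0.01.

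The proteins that move new chains into the lumen, clip their signal peptides and attach N-glycans formed the other list with many low values. Of 26 measured, 25 had a lower mean at the low level, against 51.8% of all probe sets. An unadjusted p below 0.05 with a lower level was reached by 16, against 6.67%. No overlap was seen for 14, against 3.11%, and the median was -0.42. The count of 16 became 6 without male 15, 7 without female 20, 9 without male 17, 9 without female 18 and 6 with female numbers 20 and 21 left out. SEC11C, a catalytic subunit of signal peptidase, had 10.42 at the low and 11.64 at the high level (-1.22, limma adjusted p = 0.275). The oligosaccharyltransferase subunits DDOST, OSTC and STT3A differed by -0.88, -1.02 and -0.71.

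The remaining lists held fewer such genes. In the list of degradation from the endoplasmic reticulum 7 of 7 genes had a lower mean at the low level (median -0.23). In that of transport to the Golgi 13 of 18 did (median -0.12), against 51.8% of all probe sets. The unadjusted p with a lower level was reached by 1 of the 7, UBE2G2 at -0.56, and by 3 of the 18, against 6.67%. With 1 liver left out, the degradation count ran from 1 to 3, being 3 without male 14 or female 19 and 2 without female 21. The transport count ran from 0 to 4, being 0 without male 15, female 18 or female 20 and 1 without male 17. Among the transport genes was TMED2 at -0.50, and KDELR3, a receptor that returns lumenal chaperones from the Golgi, had -1.0 (limma adjusted p = 0.464). Of 5 measured sensors and transcription factors of the unfolded protein response 1 reached it (0 to 1 with 1 liver left out), and XBP1 differed by -0.02. Of 5 measured targets of the integrated stress response 0 were lower at that p (median 0.15). ATF4, the transcription factor of that response, had 9.57 at the high and 9.81 at the low level, a difference of 0.25 (limma adjusted p = 0.461). Every restricted liver lay above every high-fed one for ATF4, as for 2.8% of the probe sets tested in liver. DDIT3, one of the target genes of ATF4, was below 4 on every liver array.

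Chaperones of the cytosol and mitochondria had a median of -0.07, and 1 of 21 reached the unadjusted p with a lower level (0 to 3 with 1 liver left out). HSP90AB1, the cytosolic relative of HSP90B1, differed by 0.37 and HSP90AA1 by -0.17. TRAP1, its mitochondrial relative, differed by -0.07 and HSPA9, the mitochondrial relative of HSPA5, by -0.23. HSPA8, the cytosolic relative of HSPA5, differed by 0.12, and 2 other probe sets of it had the opposite sign. P4HB, HERPUD1, ATF6, EIF2AK3 and ERN1 were not analysed here, since no probe set carried those symbols alone.

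**Figure D4:**
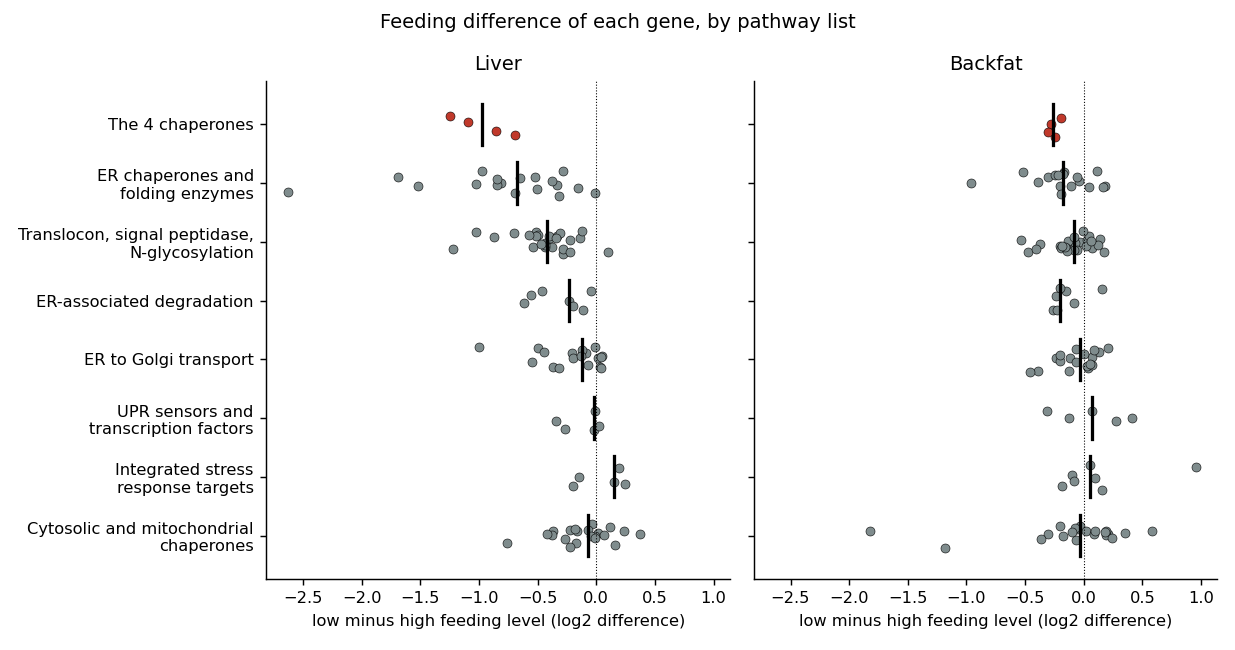
Low minus high feeding level difference (log2) of each measured gene, 1 point a gene, in liver (left) and backfat (right), by pathway list; black bars are medians. In liver the 4 chaperones, which were chosen on this difference, have a median of -0.98, folding enzymes -0.67 and the translocon and glycosylation list -0.42, against 0.15 for integrated stress response targets.

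The same lists were read in backfat. Of 17 measured chaperones and folding enzymes 13 had a lower mean at the low level, against 48.9% of all probe sets, with a median of -0.18. An unadjusted p below 0.05 with a lower level was reached by 2, against 5.42%. Those 2 were CRELD2 at -0.52 and ERP44 at -0.31 (limma adjusted p of 0.390 and 0.412), and PDIA3 had -0.96 (limma adjusted p = 0.462). The translocon and glycosylation list had a median of -0.08 over 26 genes, with SRP9 at -0.54. DDIT3 averaged 4.61 ± 0.39 (SD, n = 4) in high-fed and 5.57 ± 0.46 (SD, n = 4) in restricted backfats, without overlap (0.96, limma adjusted p = 0.319). Every restricted array was higher for 3.25% of the probe sets tested in backfat. No gene of these lists passed the adjusted threshold in backfat.

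Between the tissues, 12 of 18 chaperones and folding enzymes were higher in liver, against 32.2% of all probe sets, and 1, SEC63, was lower, against 43.6% (limma, adjusted p below 0.05), with a median of 1.24. PDIA3 was 3.04 higher on the log2 scale and HYOU1 1.98. SDF2L1 was below 4 on all backfat arrays and at least 9.21-fold higher in liver, from its liver mean against a level of 4. In the translocon and glycosylation list 19 of 26 were higher in liver and 0 lower. Targets of the integrated stress response went the other way, with 6 of 7 lower in liver, among them ATF4 at -1.70 (limma adjusted p = 2.06e-09). XBP1 was higher in liver by 1.03, and the cytosolic and mitochondrial chaperones split into 7 higher and 5 lower of 22, a share of higher genes near that of all probe sets.

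For sex, no gene of the lists of the endoplasmic reticulum passed in liver, where CRYAB at -2.32 and DNAJB1 at -1.13, both cytosolic chaperones, were lower in females (limma adjusted p of 0.0116 and 0.0331).

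Genes were finally ranked by the likeness of their profile to the mean of the 4 chaperones, by Pearson's r over the 8 arrays of a tissue, as a description with no test. The values share the arrays, their normalization and, in liver, the feeding difference that chose the chaperones. Of 4920 genes ranked in liver, the nearest were DNAJB11 (r = 0.995), DDOST (r = 0.994) and OSTC (r = 0.991). LMAN2, a lectin of the early secretory pathway, followed with r = 0.982, then SDF2L1 with 0.981, SRP9 of the signal recognition particle with 0.973 and STT3A and SEC11C with 0.964 each. NME1, a nucleoside diphosphate kinase, had 0.961 and LOC100513863 had 0.960. Of these 10, 7 stood in the pathway lists above, whose genes made up 2.03% of those ranked.

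In backfat, where 4913 genes were ranked, the nearest were ACSL5, an acyl-CoA synthetase, with r = 0.940, the laminin chain LAMB1 with 0.907, PHYH with 0.891 and CFD, the complement factor adipsin, with 0.887. NUBP1, LPGAT1, ZNF281, VPS36, TMEM258 and OPTN followed with r from 0.863 to 0.845. None of the 10 was in the pathway lists, which made up 2.06% of the genes ranked, and none was among the 10 nearest in liver. The lists leave out some genes of the secretory pathway, among them LMAN2 and TMEM258, which is a subunit of the oligosaccharyltransferase. Absence from the lists therefore does not place the 10 genes outside that pathway.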

How the data were processed

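RNA of 16 samples was extracted with a RiboPure kit and hybridised as biotin-labelled cRNA to Affymetrix arrays, per the labels' protocols. The authors deposited log2 expression values made with GCRMA, per the submitters' processing notes, which give no version. Whether all arrays were normalized together is not given in the sources used here, which bears on levels set across tissues. No scan date or batch is given in them either. The number of arrays limits the precision.

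Controls (124 of 24123 probe sets) were left out. The annotation gave 1 symbol to 10069 probe sets and several to 198, from which no gene was named. All 8 chaperone probe sets matched a RefSeq gene by Entrez ID. Samples were grouped by the tissue, sex and feeding level their labels state, and 0 columns were left unused. A probe set entered a fit when above 4 on at least 2 of its arrays, so that 12617 were tested in liver, 12686 in backfat and 13962 between the tissues. The means of the groups were estimated with limma 3.58.1 in R 4.3.3 (lmFit, eBayes), without an animal block, with Benjamini-Hochberg adjustment over all probe sets of the fit and a threshold of 0.05. Intervals are limma's for 1 difference, unadjusted. Exact permutation tests used scipy 1.17.1, and the smallest two-sided p of 4 against 4 arrays is 0.0286. In simulated arrays, 50 probe sets each were given log2 changes of 0.5, 1, 2 and 4 at once. The feeding comparison of backfat, with 12686 probe sets, recovered 38% of those given 1 and 72% of those given 2. The changes made together ease the Benjamini-Hochberg threshold for each other. In the real backfat arrays 0% passed for feeding, so these shares can overstate what would be recovered there.

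The chaperones, the gene lists and the rules were chosen with earlier results of these data known. Named are all chaperone probe sets, a set of 21 related genes, up to 4 genes of a list past the threshold or else those of lowest p, and the 10 genes of nearest profile in each tissue; others named from a list were chosen after their values were seen. A gene was represented by its probe set of highest mean. Animal numbers pair the tissues of the 4 males. The deviations from the group means correlated across tissues at 0.0874 for males 14 and 17 and 0.0549 for males 15 and 16, and females were not paired. Alternatives were other filters, quantile normalization, a median shift, a trend with robust estimation, array weights, each array left out, other models and the block.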

Additional observations from a re-analysis of the deposited data

Results flagged for a closer look

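Among 26 sets of 4 arrays of 1 feeding level and tissue, 2 held an array far from the others, and chance alone gives about 1 in 20. The 26 sets are not independent, since several probe sets were read on the same arrays, so nothing is read from the count. For PDIA4 by its S1 probe set, the restricted liver of female 21 read 8.15, above the other restricted livers, which lay between 7.68 and 7.73. By the dim PDIA4 probe set, the restricted liver of male 16 read 2.89 against 2.19 to 2.31 in the others, all below the level of 4.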

How the results depend on the processing

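No chaperone probe set changed its side of the limma threshold for feeding in backfat, sex or the sex by feeding interaction in any setting run, and the 6 bright ones stayed higher in liver than in backfat in all. The exact permutation test of feeding in liver was not run, because that contrast chose the genes. By an exact permutation test HSP90B1 (S2 probe set) had p = 0.0286 for feeding in backfat with a difference of -0.28, unadjusted and the smallest p possible. The dim PDIA4 probe set lies near the floor and entered the tissue fit only through 2 high-fed livers, so it is not counted here. Of the 10 genes of nearest profile in backfat, 4 were also among the nearest by Spearman's rho, against 9 of 10 in liver.

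The males' animal number as a replicate block, over all 16 arrays, left the median liver feeding difference of the 4 genes at -0.98 and changed no chaperone call. Over all probe sets the block gave 11 calls for feeding in liver and 54 in backfat, against 0 each, and 910 for sex in liver, against 572, and 26 for sex in backfat, against 14. One fit of all 16 arrays without the block gave 11, 53, 907 and 27. For sex in liver the count was 333 with no filter, 177 to 449 with 1 array left out and 89 with female numbers 20 and 21 left out.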
